A study of Homo sapiens with 27 samples.

Results

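SUM44 LTED-B cells were compared with the SUM44PE culture by RNA-Seq, with 3 libraries on each side, which are 6 of the 27 libraries of the series. SUM44 is an ER-positive cell line from human invasive lobular carcinoma, and LTED cells are variants that were kept without estrogen for months. SUM44PE cells were grown in the defined medium of this line, whereas a culture derived from them, SUM44F, was adapted to medium with 10% FBS and was the parental culture from which LTED-A and LTED-B were generated separately. LTED-B cells were kept in IMEM with 10% charcoal-stripped serum (CSS). The 3 wells of SUM44PE and the 3 wells of SUM44F were also in CSS medium at collection, after 3 days of hormone deprivation in it. Members were all genes with enough counts in these libraries, and 27457 of the 60619 genes in the deposited table could be tested. LTED-B is 1 variant, so its wells are not separate derivations, and in this pair the months without estrogen and the months in media with serum cannot be told apart. SUM44F and LTED-A values are therefore set beside those of the genes given by library.

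In ER-positive breast cells, estrogen bound to the receptor ER drives genes of secretion, growth and the cell cycle. When the ligand is withdrawn, most such cells slow or stop dividing, and LTED lines are the cells that resume growth after prolonged withdrawal. ER signaling, growth factor receptors, lipid synthesis and stress pathways are the processes most often studied in such lines.

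Values are estimated counts per gene, scaled here by TMM library size to CPM. Libraries held 35614898 to 47109047 counts in SUM44PE and 34591553 to 97697516 in LTED-B, and LTED-B replicate 3 was the deepest of the 6. Both groups carried the epithelial label: on the same scale, markers of luminal breast epithelium summed to 7420.5 to 8009 CPM in SUM44PE and 6435 to 6793 CPM in LTED-B, and the 10 fibroblast markers summed to 12.1 to 13.1 and 10.9 to 12.7 CPM. Basal markers summed to 12.9 to 15.4 and 10.6 to 11 CPM, and the 10 endothelial markers, mostly PECAM1, to 14 to 14.2 and 5.79 to 6.79 CPM. The part of such markers in the results was not tested. LTED-A replicates 2 and 3 differed by less than the sampling noise and were counted as 1 sample. SUM44F replicate 1 stood apart, with 369 CPM of fibroblast markers against 10.4 and 9.31 CPM in the other SUM44F libraries, and counts of list members and medians of neighbouring genes against SUM44F are given with and without it. Values of SUM44F (n = 3, replicate 1 included) and LTED-A (n = 2) are means ± SD. Levels are bulk averages, in which fewer cells expressing a gene and less RNA per cell cannot be told apart.

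LTED-B and SUM44PE cells differed widely. A gene is called DE here when it changed more than 1.5-fold with a Benjamini-Hochberg adjusted p below 0.001 in the quasi-likelihood test of edgeR, which is two-sided. After a log2 fold change, also where it stands alone in parentheses, ± gives a standard error and not an SD. It was derived from the fold change and the F statistic of this test. The p-values and these errors measure the spread between wells, which was estimated over all SUM44 groups together, SUM44F replicate 1 included. A gene with a deviating level in that library can thus miss the threshold although its SUM44PE and LTED-B wells are tight. Of 27457 genes tested, 2873 were higher in LTED-B (10.5%) and 2669 were lower (9.72%), which gives 5542 DE genes (20.2%). Of the 15750 protein-coding genes among them, 2610 were higher and 1885 lower. Counts of list members below are set against these shares, and nothing is read from a count near them. The falls were larger than the rises: 435 genes fell and 86 rose by more than 3 on the log2 scale, and 130 fell and 17 rose by more than 5. These sizes were not split by gene type. Among lncRNA genes called DE, 521 fell and 126 rose, whereas more protein-coding genes rose than fell. Across all genes the median log2 fold change was -0.08. Distances between libraries over the 1000 most variable genes were 64.2 to 66.4 between SUM44PE and LTED-B, 9.82 to 16.4 within SUM44PE and 7.96 to 10.7 within LTED-B. SUM44F was 33.8 to 39.0 from SUM44PE, also without its replicate 1. SUM44F differed from SUM44PE in 748 higher (2.72%) and 782 lower genes (2.85%), 5.57% in all, and LTED-B differed from SUM44F in 2636 higher (9.60%) and 2641 lower genes (9.62%), 19.2% in all. These comparisons share libraries with each other and are set side by side only. LTED-A and LTED-B, the variants derived separately, differed from each other in 2529 genes (9.21%).

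**Figure D1:**
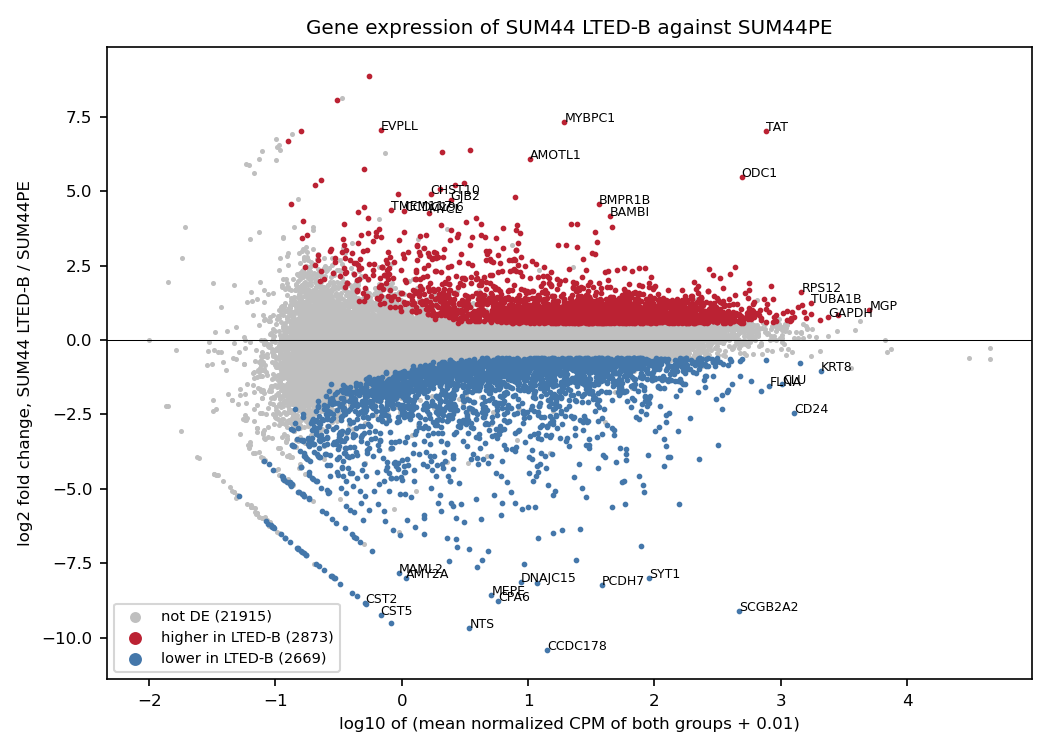
Log2 fold change of SUM44 LTED-B against SUM44PE (y axis) by the log10 of the mean CPM of both groups plus 0.01 (x axis), with 1 point per gene tested. Of the genes, 2873 were higher in LTED-B (red), 2669 lower (blue) and 21915 not DE (grey), and the named genes are those chosen by size of change.

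The largest rises included enzymes of tyrosine and polyamine metabolism, a muscle protein and receptors of the BMP pathway. TAT, the enzyme that starts the breakdown of tyrosine (ENSG00000198650, chr16:71565660-71577092), had 11.1, 10.9 and 12.6 CPM in the SUM44PE libraries and 1531, 1500.2 and 1500.3 CPM in the LTED-B libraries (log2 fold change 7.04 ± 0.38, adjusted p = 9.75e-09). ODC1, the rate-limiting enzyme of polyamine synthesis (ENSG00000115758, chr2:10439968-10448327), had 21.9, 22.1 and 20.7 CPM in the SUM44PE libraries and 955, 972 and 947 CPM in the LTED-B libraries (log2 fold change 5.47 ± 0.10, adjusted p = 8.5e-13). All 3 LTED-B libraries were far above all 3 SUM44PE libraries for both genes. TAT stood at 1.57 ± 1.45 CPM (SD, n = 3) in SUM44F and at 25.6 ± 1.75 CPM in LTED-A, while ODC1 stood at 75.9 ± 5.22 CPM (SD, n = 3) in SUM44F and at 163 ± 25 CPM in LTED-A. Of the 4 groups of this cell line, TAT was above 1000 CPM in LTED-B alone. MYBPC1, a myosin-binding protein of slow muscle, had 0.216, 0.253 and 0.225 CPM in the SUM44PE libraries and 39.7, 39.0 and 36.8 CPM in the LTED-B libraries (log2 fold change 7.35 ± 0.21, adjusted p = 2.19e-11). AMOTL1, a relative of angiomotin found at cell junctions, had 0.162, 0.317 and 0.400 CPM in the SUM44PE libraries and 21.5, 19.8 and 20.2 CPM in the LTED-B libraries (log2 fold change 6.10 ± 0.66, adjusted p = 5.73e-06). In SUM44F, AMOTL1 had 3.03 CPM in replicate 1 and 0.487 and 0.401 CPM in the other libraries. The groups did not overlap for either gene. BMPR1B, a type I receptor for BMP ligands, and BAMBI, a decoy receptor that dampens TGF-beta and BMP signaling, also rose (4.59 ± 0.13 and 4.16 ± 0.09). BMPR1B had 2.86, 2.81 and 3.03 CPM in the SUM44PE libraries and 72.1, 70.4 and 66.6 CPM in the LTED-B libraries, against 0.518 ± 0.176 CPM in SUM44F and 17.9 ± 1.57 CPM in LTED-A. MYBPC1 stood at 0.171 ± 0.0919 CPM in SUM44F and 0.706 ± 0.114 CPM in LTED-A. In LTED-A, AMOTL1 was at 2.78 ± 0.109 CPM.

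The other 6 of the 12 largest rises were of genes with lower levels. GJB2, a gap junction connexin, rose from 0.177 to 4.68 CPM (4.71 ± 0.19) and stood at 6.28 ± 1.06 CPM in LTED-A. CHST10, a sulfotransferase of the HNK-1 carbohydrate, rose from 0.107 to 3.25 CPM (4.92 ± 0.29), and LTED-A had 0.0351 ± 0.0143 CPM. MYCL, a transcription factor of the MYC family, rose from 0.158 to 3.10 CPM (4.26 ± 0.21). The membrane protein TMEM117 rose from 9 counts in all SUM44PE libraries to 1.41, 1.28 and 1.93 CPM, a ratio of 23 (95% exact interval 11.9 to 50.9), and CCDC196 rose from 0.0962 to 1.98 CPM. EVPLL, a relative of the envoplakins of the cornified envelope, had 1 count in all 3 SUM44PE libraries together and 1.32, 1.13 and 1.59 CPM in LTED-B, a ratio of 177 (95% exact interval 31.4 to 7002) that covers counting error only.

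The largest falls included secreted breast and exocrine proteins and a synaptic vesicle protein. SCGB2A2, which encodes mammaglobin-A, a secreted protein of mammary epithelium (ENSG00000110484, chr11:62270158-62273160), had 885, 957 and 940.5 CPM in the SUM44PE libraries and 1.59, 1.73 and 1.69 CPM in the LTED-B libraries (log2 fold change -9.11 ± 0.15, adjusted p = 2.36e-13). SUM44F lay between them at 199.9 ± 13.1 CPM (SD, n = 3), and LTED-A was at 2.52 ± 0.695 CPM. SYT1, the calcium sensor of synaptic vesicles (ENSG00000067715, chr12:78863993-79452008), had 169, 192 and 180.5 CPM in the SUM44PE libraries and 0.612, 0.702 and 0.743 CPM in the LTED-B libraries (log2 fold change -8.00 ± 0.10, adjusted p = 5.2e-14). SYT1 stood at 187 ± 4.67 CPM (SD, n = 3) in SUM44F and at 80.1 ± 3.99 CPM in LTED-A, so that LTED-B alone of the 4 groups had a level near 1 CPM. PCDH7, a protocadherin, had 79.9, 74.8 and 75.7 CPM in the SUM44PE libraries and 0.183, 0.175 and 0.322 CPM in the LTED-B libraries (log2 fold change -8.22 ± 0.15, adjusted p = 3.58e-13). DNAJC15, a co-chaperone of mitochondrial protein import, fell from 17.4, 17.7 and 17.4 CPM to 1, 2 and 7 counts, and SUM44F stood at 0.941 ± 0.199 CPM (SD, n = 3). PCDH7 stood at 102 ± 9.70 CPM in SUM44F and 2.29 ± 0.0870 CPM in LTED-A.

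Genes near or below detection in LTED-B made up the rest of the 12. CCDC178 (ENSG00000166960, chr18:32937402-33441101) had 28.6, 28.5 and 27.7 CPM in SUM44PE and 3 counts in all LTED-B libraries together, a ratio of 1534 (95% exact interval 524 to 7440.4). The neuropeptide gene NTS had 6.35, 6.88 and 7.30 CPM in SUM44PE and 1 count in LTED-B, a ratio of 1116 (95% exact interval 199.8 to 44139), and it was listed at 0 in all 3 SUM44F libraries. For MEPE, a phosphoglycoprotein of mineralized matrix, the ratio was 417 (95% exact interval 162 to 1532). For MAML2, a coactivator of Notch, it was 306 (95% exact interval 54.4 to 12145). AMY2A, an amylase, gave 345 (95% exact interval 61.5 to 13696). CPA6, a carboxypeptidase, had 11.2, 12 and 11.4 CPM in SUM44PE and 4 counts in LTED-B, a ratio of 471 (95% exact interval 183 to 1730.1), and its level in SUM44F was 21.8 ± 0.913 CPM (SD, n = 3). The protease inhibitors CST5 and CST2 had no count in LTED-B, and against a floor of 3 counts per library they were at least 20.1-fold and at least 15-fold lower. AMY2A, CST5 and CST2 have near-identical copies in their clusters, so how their reads were divided is uncertain. The ratios and the floor cover counting error only.

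**Figure D2:**
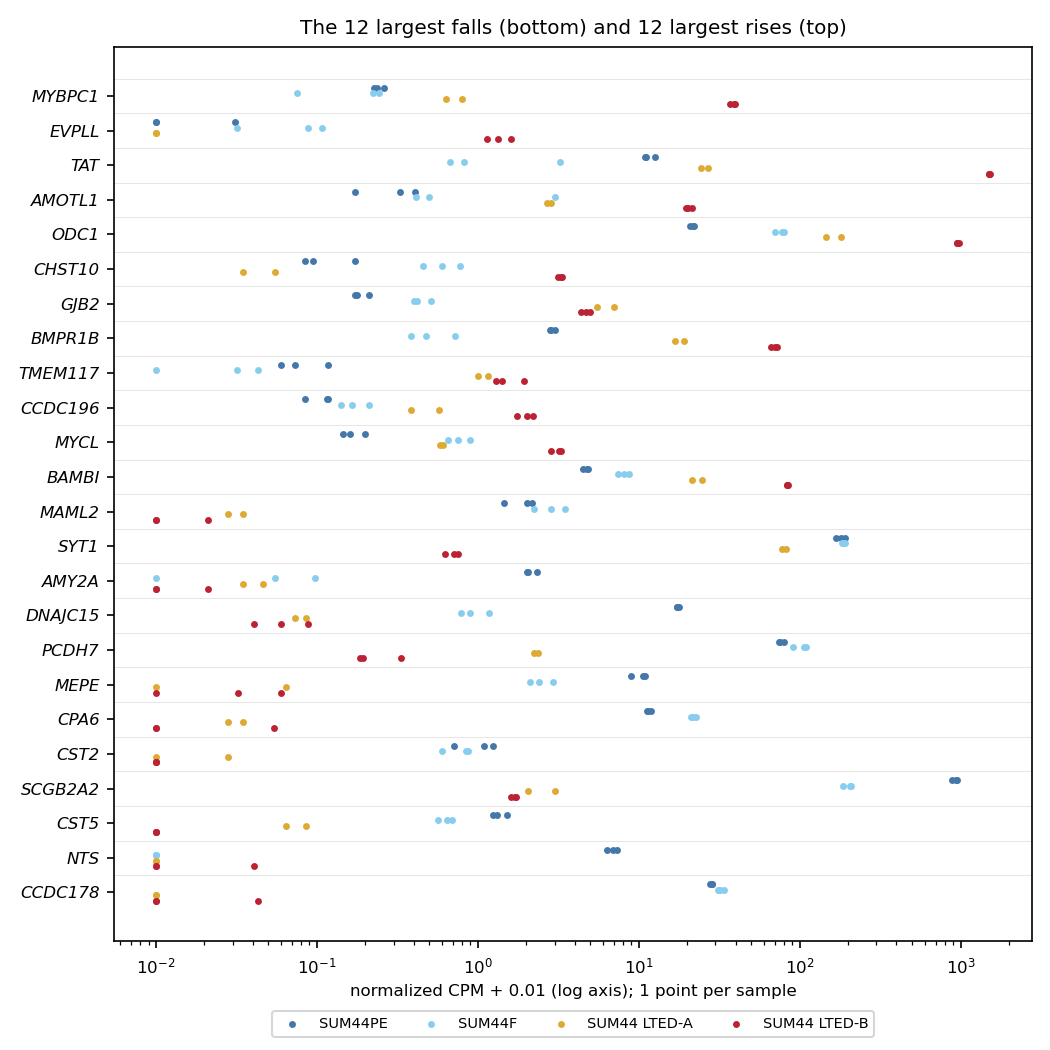
CPM plus 0.01 on a log axis (x) of the 12 genes with the largest falls (lower rows) and the 12 with the largest rises (upper rows), with 1 point per sample of SUM44PE, SUM44F, LTED-A (2 samples) and LTED-B. Points at the left edge are samples without a count, and the LTED-B points of TAT lie near 1500 CPM, apart from the other groups.

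In CPM, which is not scaled to gene length, the largest gain was that of MGP, a matrix protein that inhibits calcification, with 3234, 3479 and 3294 CPM in the SUM44PE libraries and 6386, 6539.7 and 7249.6 CPM in the LTED-B libraries (log2 fold change 1.01 ± 0.13, adjusted p = 2.99e-05). SUM44F had 1467 ± 131 CPM (SD, n = 3), below SUM44PE, and LTED-A 3192 ± 664 CPM. The next largest gains after TAT were of RPS12, a protein of the small ribosomal subunit (716 to 2199.5 CPM), the tubulin TUBA1B (1026 to 2455 CPM) and the glycolytic enzyme GAPDH (1750.2 to 3025 CPM). The log2 fold change of GAPDH was 0.79 ± 0.12, and it no longer passed without SUM44PE replicate 1 (0.73) or replicate 3 (0.78). TUBA1B shares sequence with other tubulin genes, and RPS12 with processed copies. The largest losses beside SCGB2A2 were of CD24, a surface glycoprotein of epithelial cells (2068, 2230.0 and 2168 CPM in SUM44PE and 398, 391 and 399 CPM in LTED-B; -2.44 ± 0.11), KRT8, a keratin of luminal cells (2667, 2895 and 2797 CPM in SUM44PE and 1254, 1361 and 1438 CPM in LTED-B; -1.04 ± 0.12), CLU, a secreted chaperone (1508 to 537 CPM; -1.49 ± 0.12), and FLNA, an actin crosslinker (1214 to 416 CPM; -1.54 ± 0.10). The 3 LTED-B libraries were below the 3 SUM44PE libraries for each of these 4 genes.

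ER and several of its classical targets were higher in LTED-B than in SUM44PE, while others were lower. ESR1, which encodes ER (ENSG00000091831, chr6:151656691-152129619), had 849.8, 862 and 855 CPM in the SUM44PE libraries and 1402, 1385 and 1342 CPM in the LTED-B libraries (log2 fold change 0.69 ± 0.08, adjusted p = 1.13e-05). TFF1, a secreted trefoil peptide and classical ER target, had 75.9, 89.4 and 86.3 CPM in the SUM44PE libraries and 292, 331 and 356 CPM in the LTED-B libraries (log2 fold change 1.96 ± 0.12, adjusted p = 2.44e-08). For both genes LTED-B was above SUM44PE in every library, and the mean of SUM44F was below that of SUM44PE, at 572 ± 31.0 CPM (SD, n = 3) for ESR1 and 15.1 ± 2.07 CPM (SD, n = 3) for TFF1. LTED-A was at 1430.2 ± 55.6 CPM and 345 ± 48.1 CPM. CCND1, the G1 cyclin D1, rose from 765 to 1495 CPM (0.97 ± 0.09), and CA12, a carbonic anhydrase, from 487 to 1262 CPM (1.37 ± 0.08). SERPINA1, a secreted protease inhibitor, had 236, 239.8 and 245 CPM in the SUM44PE libraries and 15, 15.4 and 16.6 CPM in the LTED-B libraries (log2 fold change -3.93 ± 0.12, adjusted p = 4.42e-11). SERPINA1 stood at 180.0 ± 31.9 CPM in SUM44F and 5.85 ± 0.442 CPM in LTED-A. CTSD, a lysosomal protease, fell from 835 to 323 CPM, the EGFR ligand AREG from 4.20 to 0.381 CPM, and AGR3, a protein disulfide isomerase, from 5.60 to 0.541 CPM. GREB1 (77.2 to 60.9 CPM) and PGR, the progesterone receptor (1.46 to 0.130 CPM; -3.66 ± 0.90), did not pass. Of the 22 genes on the list of ER and its targets, 7 rose, 6 fell and 9 passed in neither direction, at a median log2 fold change of -0.17. ER targets included 10 lower in SUM44F than in SUM44PE (10 without SUM44F replicate 1), and 8 higher and 6 lower in LTED-B than in SUM44F (8 and 4).

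Among luminal genes, the lineage factors rose slightly and a set of surface and keratin genes fell. GATA3 (203 to 389 CPM; 0.93 ± 0.13) and FOXA1 (374 to 573 CPM; 0.62 ± 0.08), transcription factors that open chromatin for ER, rose. KRT7, a luminal keratin (ENSG00000135480, chr12:52232520-52252186), had 211, 222 and 224 CPM in the SUM44PE libraries and 38.0, 40.1 and 41.8 CPM in the LTED-B libraries (log2 fold change -2.45 ± 0.11, adjusted p = 1.78e-09). The LTED-B libraries were below all SUM44PE libraries, and KRT7 stood at 306 ± 53.2 CPM (SD, n = 3) in SUM44F and 123 ± 3.15 CPM in LTED-A. ELF3, an epithelial ETS factor, fell from 132 to 62.5 CPM (-1.08 ± 0.08). EPCAM (556 to 533 CPM), KRT18 (1400.2 to 1054 CPM) and KRT19 (1260.2 to 1015 CPM) did not pass. Of 20 luminal genes, 2 rose, 5 fell and 13 passed in neither direction, at a median log2 fold change of -0.12, and 1 in place of 2 rose in the fit of these 2 groups alone, with at least 10 counts in every sample, without SUM44PE replicate 1 or without LTED-B replicate 3.

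**Figure D3:**
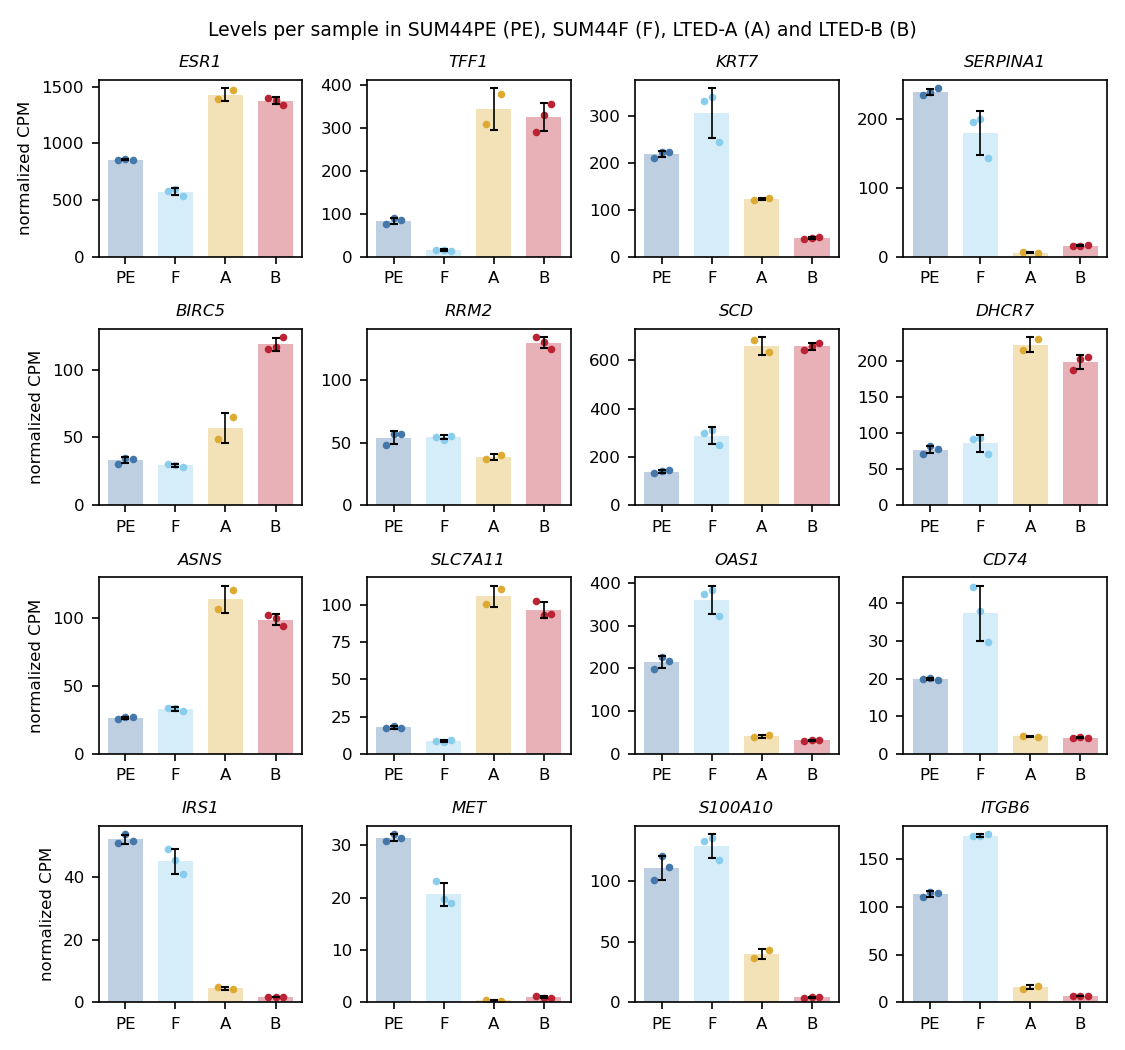
CPM per sample (points), mean (bar, from 0) and SD (error bar) of 16 genes in SUM44PE (PE, n = 3), SUM44F (F, n = 3), LTED-A (A, n = 2) and LTED-B (B, n = 3). ESR1, TFF1, BIRC5, RRM2, SCD, DHCR7, ASNS and SLC7A11 were higher in every LTED-B than in every SUM44PE sample, and KRT7, SERPINA1, OAS1, CD74, IRS1, MET, S100A10 and ITGB6 were lower.

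Genes of DNA replication and mitosis were higher in LTED-B. BIRC5, which encodes survivin of the chromosomal passenger complex (ENSG00000089685, chr17:78214186-78225636), had 30.4, 34.6 and 34.1 CPM in the SUM44PE libraries and 115, 117 and 124 CPM in the LTED-B libraries (log2 fold change 1.84 ± 0.09, adjusted p = 5.03e-09). RRM2, the small subunit of ribonucleotide reductase, had 47.8, 57.1 and 56.8 CPM in the SUM44PE libraries and 134, 130.3 and 125 CPM in the LTED-B libraries (log2 fold change 1.27 ± 0.07, adjusted p = 2.07e-08). No library of one group reached the other for either gene. Levels in the other two groups were 29.3 ± 0.912 CPM in SUM44F and 57.0 ± 11.2 CPM in LTED-A for BIRC5 and 54.2 ± 1.71 CPM in SUM44F and 38.6 ± 2.61 CPM in LTED-A for RRM2. The kinases AURKB (1.00 ± 0.07), AURKA (0.93 ± 0.09) and BUB1 (0.85 ± 0.07) rose, as did the replication factors GINS1 (1.12 ± 0.08), CDC6 (1.05 ± 0.08) and UHRF1 (0.92 ± 0.06). MKI67, the Ki-67 antigen, had 121, 126 and 132 CPM in SUM44PE and 208, 204 and 190.1 CPM in LTED-B and did not pass (log2 fold change 0.67 ± 0.15, adjusted p = 0.00215). Of 26 replication genes, 16 rose, 1 fell and 9 passed in neither direction, at a median log2 fold change of 0.65. The replication gene that fell was MCM5, a helicase subunit on 22q (81.0 to 54.0 CPM; -0.59 ± 0.08), and its fall was lost with RLE size factors, with DESeq2, without SUM44PE replicate 2 and without LTED-B replicate 1. Of 25 mitosis genes, 18 rose, 0 fell and 7 passed in neither direction, at a median log2 fold change of 0.67 (falls by edgeR at an unadjusted p under 0.05 numbered 0, and falls by DESeq2 0). Replication genes included 5 lower in SUM44F than in SUM44PE (5 without SUM44F replicate 1), and 22 higher in LTED-B than in SUM44F (22). Mitosis genes included 8 lower in SUM44F than in SUM44PE (6 without SUM44F replicate 1), and 24 higher in LTED-B than in SUM44F (24).

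Replication-dependent histone genes, which are transcribed in S phase and whose RNA is retained in libraries of total RNA, were also mostly higher. Of 46 histone genes in the 6p22 cluster, chosen after their values were seen, 39 rose, 2 fell and 5 passed in neither direction, with a median log2 fold change of 1.08. Their summed level was 5023, 5399.7 and 5093 CPM in SUM44PE and 10730.4, 11175 and 11644 CPM in LTED-B. In SUM44F the sum was 5710.1, 5097 and 3734 CPM, and in LTED-A 7238 and 8962 CPM. Histone genes of a class share long runs of sequence, so the division of reads among them is uncertain.

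Promoters of listed genes were searched for the letters of well-known elements. Shares given for a list cover all its promoters, also those of genes that did not rise. RefSeq promoters run from 250 bases before to 50 bases after each start on GRCh38.p14, and letters were searched on both strands. TTTGAA, the letters of the CHR element that is bound in many mitotic genes, was present in the mitosis list in 12 of 20 promoters (60%) against 15.4% of all 27305. TTTCCCGC, a form of the E2F site, was present in the replication list in 8 of 21 promoters (38.1%) against 1.66% of all 27305. The stretches below are those of genes that rose, in capitals where the letters match on either strand, and lie at chr16:23678834-23678891 on the + strand for PLK1, chr15:59105091-59105148 on the + strand for CCNB2, chr15:40161020-40161077 on the + strand for BUB1B, chr16:88803728-88803787 on the + strand for CDT1, chr16:85688952-85689011 on the - strand for GINS2 and chr20:5126648-5126707 on the - strand for PCNA.
PLK1: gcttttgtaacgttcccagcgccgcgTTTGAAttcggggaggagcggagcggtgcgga
CCNB2: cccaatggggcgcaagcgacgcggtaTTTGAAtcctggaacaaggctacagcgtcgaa
BUB1B: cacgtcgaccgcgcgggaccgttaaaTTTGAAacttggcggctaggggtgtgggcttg
CDT1: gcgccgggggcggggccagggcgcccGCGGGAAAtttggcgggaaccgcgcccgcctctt
GINS2: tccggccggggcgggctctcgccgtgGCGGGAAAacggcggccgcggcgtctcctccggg
PCNA: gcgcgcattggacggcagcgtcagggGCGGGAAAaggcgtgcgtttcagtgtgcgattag
The first 3 show CHR letters and the last 3 the E2F letters. PLK1, a mitotic kinase, rose from 28.4 to 44.5 CPM, CCNB2, a mitotic cyclin, from 65.7 to 105 CPM, BUB1B, a spindle checkpoint kinase, from 63.5 to 105 CPM, CDT1, which licenses origins, from 23.3 to 44 CPM, GINS2, a helicase subunit, from 22.2 to 33.9 CPM, and PCNA, the sliding clamp of DNA polymerase, from 206 to 331 CPM. Of the mitosis genes with a promoter that rose, 8 of 14 held the CHR letters, and of the replication genes 4 of 13 held the E2F letters. CCAAT, the letters of the box that NF-Y binds, was present in the mitosis list in 17 of 20 promoters (85%) against 35.7% of all 27305. Genes that did not pass held the letters too, among them KIF23 those of CHR and CLSPN those of the E2F site. A match describes the letters only.

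G1 regulators moved in both directions. CDKN1A, which encodes the CDK inhibitor p21, had 57.9, 61.9 and 61.9 CPM in the SUM44PE libraries and 12.4, 13.1 and 12.7 CPM in the LTED-B libraries (log2 fold change -2.25 ± 0.10, adjusted p = 1.57e-09). CDK6 fell from 70.7 to 25.6 CPM (-1.47 ± 0.06), whereas CDKN2A rose from 5.06 to 11.6 CPM (1.19 ± 0.12). The LTED-B libraries were below all SUM44PE libraries for CDKN1A and CDK6 and above them for CDKN2A. CDKN1A stood at 80.1 ± 11.4 CPM in SUM44F and 6.00 ± 0.666 CPM in LTED-A. Of 18 G1 genes, 5 rose, 3 fell and 10 passed in neither direction, at a median log2 fold change of 0.35. Among 23 genes of apoptosis and survival, 2 rose, 10 fell and 11 passed in neither direction, at a median log2 fold change of -0.17. BCL2, an inhibitor of apoptosis, fell from 138 to 71.5 CPM, BIRC3 from 48.1 to 11.4 CPM, CFLAR, which blocks caspase-8 activation, from 172 to 69.5 CPM, and BMF, a BH3-only protein, from 46.4 to 14.8 CPM, so that inhibitors and promoters of apoptosis were both among the genes that fell. CASP1, an inflammatory caspase, fell from 2.02 to 0.0861 CPM (-4.45 ± 0.35).

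Several genes of fatty acid synthesis were higher in LTED-B. SCD, the stearoyl-CoA desaturase (ENSG00000099194, chr10:100347233-100364826), had 132, 142 and 144 CPM in the SUM44PE libraries and 643, 660.0 and 673 CPM in the LTED-B libraries (log2 fold change 2.24 ± 0.09, adjusted p = 9.11e-10). FASN, fatty acid synthase, had 220.2, 241 and 234 CPM in the SUM44PE libraries and 842, 906 and 891 CPM in the LTED-B libraries (log2 fold change 1.93 ± 0.11, adjusted p = 1.48e-08). SREBF1, the transcription factor that drives fatty acid synthesis, rose from 92.8 to 258 CPM (1.48 ± 0.09), and ELOVL7, an elongase, from 3.29 to 10.7 CPM (1.70 ± 0.12). SUM44F was between the groups, with 287 ± 34.4 CPM (SD, n = 3) of SCD, 381 ± 41.5 CPM (SD, n = 3) of FASN and 142 ± 19.4 CPM (SD, n = 3) of SREBF1, and LTED-A had 660.5 ± 36.8 CPM, 696 ± 121 CPM and 266 ± 5.04 CPM. Of 22 genes of fatty acid synthesis and storage, 8 rose, 2 fell and 12 passed in neither direction, at a median log2 fold change of 0.40, and with at least 10 counts in every sample, with these 2 groups alone or without SUM44PE replicate 1 the falls numbered 4. Fatty acid synthesis genes included 5 higher in SUM44F than in SUM44PE (2 without SUM44F replicate 1), and 6 higher and 2 lower in LTED-B than in SUM44F (7 and 1).

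Of the genes of cholesterol synthesis and uptake, 13 of 26 rose. DHCR7, the last enzyme of cholesterol synthesis, had 71.1, 81.5 and 78.3 CPM in the SUM44PE libraries and 187, 202 and 205 CPM in the LTED-B libraries (log2 fold change 1.36 ± 0.10, adjusted p = 1.35e-07). DHCR7 stood at 85.5 ± 12.1 CPM in SUM44F and 222 ± 10.7 CPM in LTED-A. SQLE, squalene epoxidase (0.94 ± 0.07), and EBP, a sterol isomerase (1.02 ± 0.09), also rose. SREBF2, the transcription factor that drives cholesterol synthesis (91.5 to 105 CPM), did not pass. A sterol element, ATCAC and CCAC with any 1 base between them, was present in 1 of 21 promoters (4.76%) against 0.154% of all 27305, and in 0 of the 11 promoters of genes that rose, the match being in SREBF2. On this list, 13 rose, 0 fell and 13 passed in neither direction, at a median log2 fold change of 0.59 (falls by edgeR at an unadjusted p under 0.05 numbered 3, and falls by DESeq2 0). Cholesterol genes included 2 higher in SUM44F than in SUM44PE (1 without SUM44F replicate 1), and 9 higher and 2 lower in LTED-B than in SUM44F (8 and 2). Of 22 genes of fatty acid oxidation, 4 rose, 2 fell and 16 passed in neither direction, at a median log2 fold change of 0.04. These counts were near the share over protein-coding genes (2610 higher and 1885 lower of 15750). Of 19 genes of lipid transport, 3 rose, 5 fell and 11 passed in neither direction, at a median log2 fold change of -0.08. APOD, a lipocalin that carries small lipids, fell from 534 to 149.8 CPM (-1.83 ± 0.13), and NR1H3, the oxysterol receptor LXR alpha, rose from 24 to 48.7 CPM (1.02 ± 0.09).

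Genes of a joint list of the integrated stress response and the unfolded protein response were mostly higher. ATF4 drives the former when amino acids are short or the endoplasmic reticulum is stressed. The counts below cover both responses and do not separate them. SLC7A11, the cystine importer (ENSG00000151012, chr4:138164097-138242349), had 17.2, 19 and 17.4 CPM in the SUM44PE libraries and 103, 93.2 and 94.2 CPM in the LTED-B libraries (log2 fold change 2.43 ± 0.08, adjusted p = 6.79e-11). ASNS, asparagine synthetase, had 25.5, 27.1 and 27.0 CPM in the SUM44PE libraries and 102, 100.1 and 94.5 CPM in the LTED-B libraries (log2 fold change 1.90 ± 0.07, adjusted p = 1.45e-10). Every LTED-B library was above every SUM44PE library for both. Levels in the other two groups were 8.42 ± 0.733 CPM in SUM44F and 106 ± 7.26 CPM in LTED-A for SLC7A11 and 33.0 ± 1.40 CPM in SUM44F and 114 ± 9.80 CPM in LTED-A for ASNS. SHMT2, a mitochondrial enzyme of serine metabolism (1.43 ± 0.09), CHAC1, which degrades glutathione (1.73 ± 0.10), and ATF4 itself (258 to 475 CPM) rose. HSPA5, the main chaperone of the endoplasmic reticulum, rose from 119.8 to 269.8 CPM. Of the 23 genes of the joint list, 17 rose, 0 fell and 6 passed in neither direction, at a median log2 fold change of 0.91. Falls by edgeR at an unadjusted p under 0.05 numbered 0, and falls by DESeq2 0. Stress response genes included 1 higher and 3 lower in SUM44F than in SUM44PE (1 and 4 without SUM44F replicate 1), and 14 higher and 1 lower in LTED-B than in SUM44F (15 and 1). TGATGNAA, the letters of the element bound by ATF4 and C/EBP factors, was present in 5 of 21 promoters of the joint list (23.8%). The share over all 27305 promoters was 3.67%, and 2 of the 14 promoters of genes that rose held the letters. They are shown with these letters in capitals and lie at chr7:97872443-97872502 on the - strand for ASNS and chr15:40953236-40953295 on the + strand for CHAC1.
ASNS: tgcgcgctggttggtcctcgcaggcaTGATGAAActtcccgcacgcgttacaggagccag
CHAC1: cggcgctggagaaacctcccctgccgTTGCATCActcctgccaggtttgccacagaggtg

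Among interferon-stimulated genes, 10 of 25 were lower in LTED-B. OAS1, a sensor of double-stranded RNA (ENSG00000089127, chr12:112905856-112933219), had 199, 227 and 217 CPM in the SUM44PE libraries and 30.2, 33.1 and 31.8 CPM in the LTED-B libraries (log2 fold change -2.75 ± 0.09, adjusted p = 7.44e-11). SUM44F was above SUM44PE, at 359.8 ± 33.1 CPM (SD, n = 3), and LTED-A was at 41.4 ± 3.45 CPM. IRF1, a transcription factor of the interferon response (-1.46 ± 0.07), IFI6 (-2.07 ± 0.14) and OAS2 (-1.01 ± 0.08) fell, whereas MX1, an antiviral GTPase, rose from 4.66 to 8.42 CPM (0.85 ± 0.10). Of 25 interferon-stimulated genes, 1 rose, 10 fell and 14 passed in neither direction, at a median log2 fold change of -0.71. Interferon-stimulated genes included 5 higher in SUM44F than in SUM44PE (4 without SUM44F replicate 1), and 11 lower in LTED-B than in SUM44F (11). The core of the ISRE, to which ISGF3 and IRF proteins bind and which is written here as a pair of GAAA with any 2 bases between them, was present in 12 of 19 promoters (63.2%) against 3.65% of all 27305, and 4 of the 8 promoters of genes that fell held it. The promoters of IFI6 (8.81 to 2.09 CPM) and IFIT3 (3.08 to 0.840 CPM), which fell, held several matches and lie at chr1:27672250-27672374 on the - strand for IFI6 and chr10:89327815-89327910 on the + strand for IFIT3.
IFI6: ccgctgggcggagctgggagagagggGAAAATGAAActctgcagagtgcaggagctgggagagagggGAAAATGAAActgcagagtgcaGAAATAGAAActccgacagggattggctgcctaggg
IFIT3: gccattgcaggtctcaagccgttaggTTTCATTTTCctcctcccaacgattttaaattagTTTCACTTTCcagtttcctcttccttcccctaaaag

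CD74, the invariant chain of MHC class II, had 20, 20.2 and 19.5 CPM in the SUM44PE libraries and 4.07, 4.51 and 4.30 CPM in the LTED-B libraries (log2 fold change -2.21 ± 0.13, adjusted p = 1.75e-08). HLA-DMA, which loads peptides, fell from 10.0 to 2.78 CPM (-1.86 ± 0.13), HLA-DRA from 2.53 to 0.566 CPM (-2.17 ± 0.28), and CIITA, the coactivator on which class II transcription depends, from 9.22 to 4.96 CPM (-0.89 ± 0.11). The levels were low, and the LTED-B libraries lay below the SUM44PE libraries for these 4 genes. CD74 stood at 37.4 ± 7.36 CPM in SUM44F and 4.61 ± 0.174 CPM in LTED-A. Of 13 class II genes, 0 rose, 6 fell and 7 passed in neither direction, at a median log2 fold change of -1.80 (rises by edgeR at an unadjusted p under 0.05 numbered 1, and rises by DESeq2 0). Class II genes included 1 higher in SUM44F than in SUM44PE (1 without SUM44F replicate 1), and 9 lower in LTED-B than in SUM44F (9). B2M, the light chain of class I, had 345, 370.5 and 354 CPM in the SUM44PE libraries and 143, 140.0 and 141 CPM in the LTED-B libraries (log2 fold change -1.34 ± 0.10, adjusted p = 1.56e-07). B2M stood at 348 ± 16.4 CPM in SUM44F and 185 ± 39.2 CPM in LTED-A. HLA-F fell from 4.58 to 1.82 CPM and TAPBP, a loading chaperone, from 213 to 140.2 CPM, but TAPBP was not called with RLE size factors, with DESeq2, without SUM44PE replicate 3 or without LTED-B replicate 1 (-0.55 to -0.58). HLA-B (192 to 139 CPM) and HLA-C (126 to 91.7 CPM) did not pass. Of 15 class I genes, 0 rose, 5 fell and 10 passed in neither direction, at a median log2 fold change of -0.45 (rises by edgeR at an unadjusted p under 0.05 numbered 1, and rises by DESeq2 0). Sequences of HLA genes are alike and vary between people, and counts against 1 reference may miss reads. Markers of immune cells summed to 4.08 to 5.02 CPM in SUM44PE and 4.06 to 5.17 CPM in LTED-B, ranges that overlapped, with CD3D at 0 in all 6 libraries.

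Several growth factor receptors and an adaptor were lower in LTED-B, and FGFR3 and FGFR4 were higher. IRS1, the adaptor of the insulin and IGF receptors (ENSG00000169047, chr2:226731312-226799820), had 50.8, 53.5 and 51.4 CPM in the SUM44PE libraries and 1.59, 1.60 and 1.69 CPM in the LTED-B libraries (log2 fold change -4.98 ± 0.10, adjusted p = 1.15e-12). MET, the HGF receptor, had 30.8, 32.1 and 31.5 CPM in the SUM44PE libraries and 1.16, 0.928 and 0.810 CPM in the LTED-B libraries (log2 fold change -5.07 ± 0.13, adjusted p = 9.68e-12). NTRK2, the BDNF receptor, had 10.8, 9.71 and 10.6 CPM in the SUM44PE libraries and 0.336, 0.226 and 0.288 CPM in the LTED-B libraries (log2 fold change -5.19 ± 0.14, adjusted p = 1.84e-11). All 3 genes were more than 20-fold lower in LTED-B, with no overlap between groups, and SUM44F stood at 44.9 ± 3.99 CPM (SD, n = 3), 20.6 ± 2.21 CPM (SD, n = 3) and 30.4 ± 3.02 CPM (SD, n = 3) for IRS1, MET and NTRK2. LTED-A stood at 4.55 ± 0.503 CPM, 0.369 ± 0.00977 CPM and 0.0306 ± 0.00787 CPM. ERBB4, a neuregulin receptor, fell from 231 to 63.0 CPM (-1.87 ± 0.06). FGFR3 (17.2 to 30.5 CPM; 0.83 ± 0.10) and FGFR4 (124 to 189 CPM; 0.61 ± 0.08) rose, and FGFR1 (532 to 609.9 CPM) did not pass. Of 24 genes, 2 rose, 10 fell and 12 passed in neither direction, at a median log2 fold change of -0.67. Growth factor receptor genes included 2 higher and 8 lower in SUM44F than in SUM44PE (2 and 9 without SUM44F replicate 1), and 3 higher and 6 lower in LTED-B than in SUM44F (5 and 7). Of 20 immediate early genes, 0 rose, 5 fell and 15 passed in neither direction, at a median log2 fold change of -0.05 (rises by edgeR at an unadjusted p under 0.05 numbered 7, and rises by DESeq2 3), among them FOS (4.02 to 0.630 CPM; -2.69 ± 0.18), JUN (26.1 to 13.4 CPM; -0.96 ± 0.08), EGR1 (1.47 to 0.342 CPM; -2.16 ± 0.25) and DUSP6, a phosphatase induced by and acting on ERK (55.1 to 16 CPM; -1.78 ± 0.07). DESeq2 called 3 rises on that list.

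BMP and TGF-beta genes changed in both directions. Beside BMPR1B and BAMBI, which rose, ID3, an inhibitor of DNA-binding factors that BMP signaling induces, had 64.5, 66.2 and 67.3 CPM in the SUM44PE libraries and 11.9, 14.2 and 13.8 CPM in the LTED-B libraries (log2 fold change -2.31 ± 0.11, adjusted p = 2.14e-09). ID3 stood at 56.6 ± 8.75 CPM in SUM44F and 32.5 ± 0.610 CPM in LTED-A. SMAD6, an inhibitory SMAD, fell from 31.4 to 12.1 CPM (-1.38 ± 0.07), TGFBR2 and TGFBR3, receptors of TGF-beta, from 4.30 to 0.778 CPM and 17.5 to 2.96 CPM, and TGFB2, a ligand, from 1.43 to 0.0880 CPM, while the ligands BMP7 (2.53 to 7.55 CPM) and TGFB1 (3.59 to 9.03 CPM) rose. Among receptors and among ligands, some genes rose and others fell. Of 22 genes, 5 rose, 11 fell and 6 passed in neither direction, at a median log2 fold change of -0.61. BMP and TGF-beta genes included 4 higher and 4 lower in SUM44F than in SUM44PE (3 and 4 without SUM44F replicate 1), and 4 higher and 9 lower in LTED-B than in SUM44F (4 and 10). In the WNT and Notch list, the ligand WNT11 had 23.7, 23.4 and 23.7 CPM in the SUM44PE libraries and 1.22, 1.13 and 1.52 CPM in the LTED-B libraries (log2 fold change -4.15 ± 0.13, adjusted p = 5.51e-11). WNT11 stood at 35.2 ± 3.68 CPM in SUM44F and 0.755 ± 0.147 CPM in LTED-A. WNT6, another ligand, fell from 1.53 to 0.123 CPM, the receptor FZD7 from 75 to 28.6 CPM and the Notch ligand JAG1 from 16.1 to 2.94 CPM, whereas LEF1, a transcription factor of WNT signaling, rose from 0.676 to 7.82 CPM (3.54 ± 0.34). Of 22 genes, 4 rose, 7 fell and 11 passed in neither direction, at a median log2 fold change of -0.34. WNT and Notch genes included 1 higher and 3 lower in SUM44F than in SUM44PE (1 and 3 without SUM44F replicate 1), and 5 higher and 7 lower in LTED-B than in SUM44F (5 and 6).

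Several integrins, laminins, annexins and S100 proteins were lower in LTED-B. ITGB6, the integrin subunit of an activator of latent TGF-beta (ENSG00000115221, chr2:160099667-160200313), had 109.9, 116 and 115 CPM in the SUM44PE libraries and 6.79, 7.20 and 6.81 CPM in the LTED-B libraries (log2 fold change -4.03 ± 0.08, adjusted p = 1.19e-12). ITGB6 stood at 175 ± 1.09 CPM in SUM44F and 16 ± 2.39 CPM in LTED-A. DSG2, a desmosomal cadherin, fell from 74.3 to 18.3 CPM (-2.02 ± 0.06), and the integrin subunits ITGA2 and ITGA6 from 134 to 35.5 CPM and 124 to 41.2 CPM. E-cadherin, CDH1, the gene lost in lobular carcinoma, had 21.0, 20.9 and 21.4 CPM in SUM44PE and 13.9, 15.6 and 15.2 CPM in LTED-B and did not pass. VIM, which encodes vimentin, had 2.38, 2.45 and 1.58 CPM in SUM44PE and 0.489, 0.175 and 0.144 CPM in LTED-B and did not pass either. The VIM libraries of these groups did not overlap, and the spread behind its p-value included SUM44F replicate 1. Of 22 adhesion genes, 1 rose, 6 fell and 15 passed in neither direction, at a median log2 fold change of -0.24. Of 21 genes of the extracellular matrix, 0 rose, 7 fell and 14 passed in neither direction, at a median log2 fold change of -0.76 (rises by edgeR at an unadjusted p under 0.05 numbered 1, and rises by DESeq2 0), and 1 rose in the fit of these 2 groups alone and without SUM44F replicate 1. The laminin chains LAMB3 (26.9 to 6.49 CPM; -2.05 ± 0.11) and LAMA3 (45.4 to 15.8 CPM; -1.53 ± 0.07) and the collagen COL12A1 (41.6 to 5.40 CPM) were among those that fell. Matrix genes included 5 higher and 1 lower in SUM44F than in SUM44PE (5 and 3 without SUM44F replicate 1), and 0 higher and 8 lower in LTED-B than in SUM44F (2 and 9).

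S100A10, the partner of annexin A2 at the membrane (ENSG00000197747, chr1:151982915-151993859), had 100.3, 120.0 and 111 CPM in the SUM44PE libraries and 3.91, 4.61 and 4.08 CPM in the LTED-B libraries (log2 fold change -4.72 ± 0.11, adjusted p = 3.28e-12). S100A10 stood at 128 ± 10.1 CPM in SUM44F and 39.8 ± 4.27 CPM in LTED-A. ANXA1, annexin A1, had 7.73, 8.51 and 7.38 CPM in SUM44PE and 6 counts in all LTED-B libraries together, a ratio of 215 (95% exact interval 98.2 to 586). The other two genes of this group with the smallest p were S100A7, psoriasin (55.4 to 5.57 CPM; -3.31 ± 0.10), and ANXA3 (12.1 to 2.50 CPM; -2.28 ± 0.11). S100P, chosen after its values were seen, rose from 1.86 to 8.48 CPM (2.19 ± 0.14). Of 22 S100 and annexin genes, 2 rose, 10 fell and 10 passed in neither direction, at a median log2 fold change of -0.64. These genes included 5 higher in SUM44F than in SUM44PE (5 without SUM44F replicate 1), and 1 higher and 15 lower in LTED-B than in SUM44F (1 and 14).

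Among the remaining lists, steroid and xenobiotic metabolism held AKR1C2, an aldo-keto reductase that inactivates androgen, with 154, 174 and 165 CPM in the SUM44PE libraries and 10.3, 11.5 and 12.4 CPM in the LTED-B libraries (log2 fold change -3.85 ± 0.11, adjusted p = 2.17e-11). AKR1C2 stood at 8.63 ± 0.998 CPM in SUM44F and 2.12 ± 0.384 CPM in LTED-A. AKR1C2 has close relatives in its cluster, so the division of reads is uncertain. CYP2J2, a cytochrome P450 of fatty acids, fell from 3.57 to 0.196 CPM (-4.20 ± 0.19), AKR1B10 from 6.13 to 0.894 CPM and GSTM3, a glutathione transferase, from 406 to 178 CPM. Of 22 genes, 1 rose, 8 fell and 13 passed in neither direction, at a median log2 fold change of -0.19. Steroid and xenobiotic genes included 2 higher and 5 lower in SUM44F than in SUM44PE (2 and 4 without SUM44F replicate 1), and 4 higher and 6 lower in LTED-B than in SUM44F (4 and 5). Of 23 genes of glycolysis and hypoxia, 5 rose, 4 fell and 14 passed in neither direction, at a median log2 fold change of -0.00: HK2, a hexokinase, rose from 35.5 to 91.2 CPM (1.36 ± 0.07), and the hypoxia-induced genes EGLN3 (26.5 to 5.23 CPM), NDRG1 (114 to 34.9 CPM) and VEGFA (96.2 to 49.9 CPM) fell. Of 16 glucocorticoid-induced genes, 1 rose, 2 fell and 13 passed in neither direction, at a median log2 fold change of -0.48, and the falls were 4 with at least 10 counts in every sample or without SUM44F replicate 1, and 5 in the fit of these 2 groups alone. KLF9, a zinc finger factor, fell from 2.06 to 0.121 CPM, and CEBPD, a C/EBP factor, rose from 34.6 to 107 CPM.

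**Figure D4:**
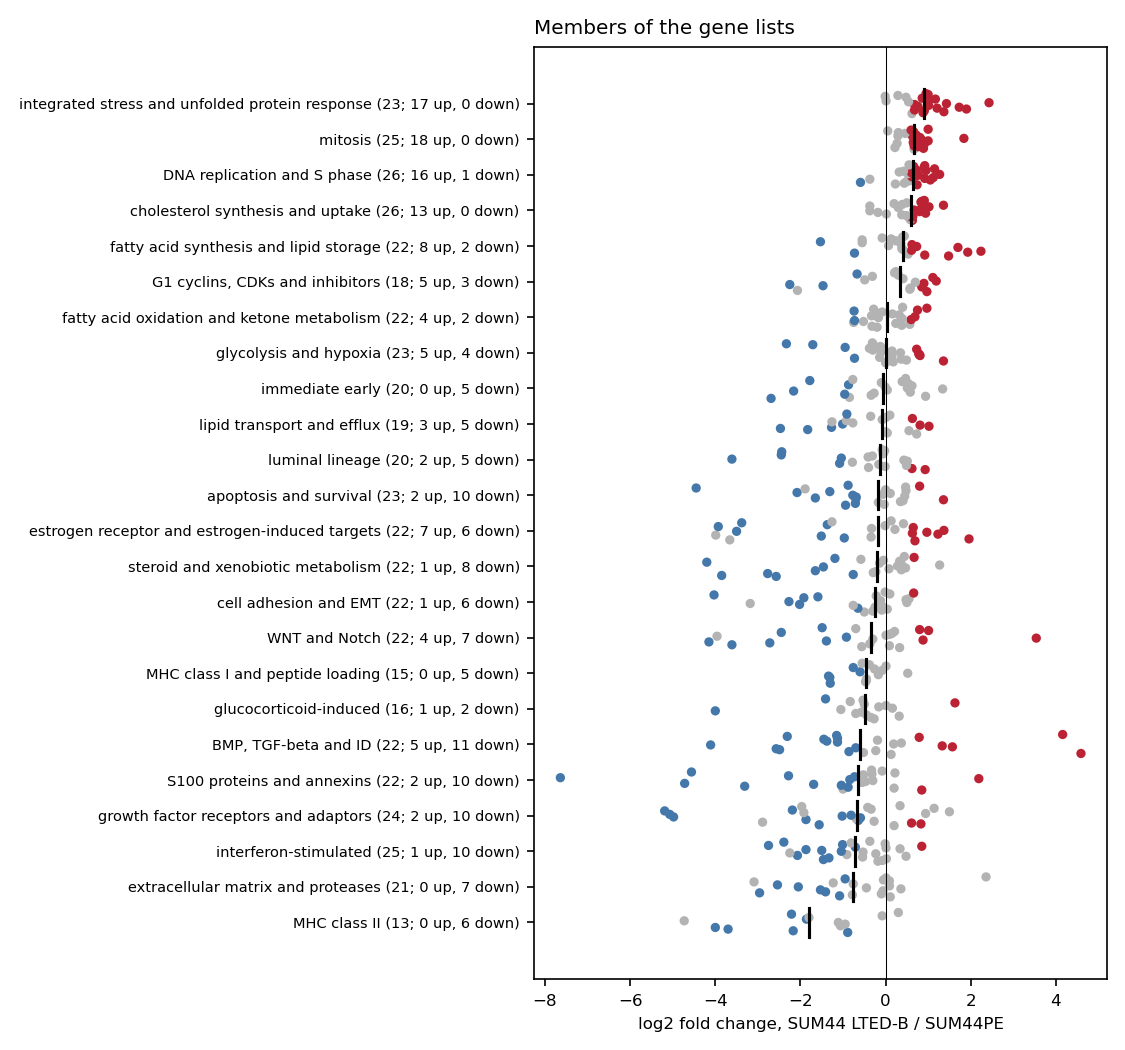
Log2 fold change of SUM44 LTED-B against SUM44PE (x axis) of the tested members of 24 gene lists (rows, ordered by median), with 1 point per gene (red higher, blue lower, grey not DE) and the median as a black bar. Medians ran from -1.80 for MHC class II to 0.91 for the integrated stress and unfolded protein response.

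Neighbouring genes were shifted together on parts of 4 chromosomes in windows of 40 expressed genes. Genes averaging 5 CPM or more were ordered along each chromosome and grouped in windows of 40, at steps of 20 genes. The median log2 fold change was above 0.5 in 27 of 560 windows and below -0.5 in 12, and runs of such windows formed 6 stretches. Windows elsewhere did not centre on 0, with medians of 0.11 to 0.45 on chromosome 3 and -0.31 to 0.02 on chromosome 14. Most windows lay above 0, so the cut of 0.5 was nearer to them for rises than for falls, and the numbers of windows in each direction are not compared. On hg38, the longest run of windows was on 17q, at chr17:48929316-82730328 (260 genes; 176 rose and 9 fell; median log2 fold change 0.76). On 17q, the median was 0.19 for SUM44F against SUM44PE (0.16 without SUM44F replicate 1), 0.60 for LTED-B against SUM44F (0.63) and 0.23 for LTED-A against SUM44PE. Genes of this stretch with high levels were ACTG1, an actin (925 to 1442 CPM), CLTC, the clathrin heavy chain (456 to 926 CPM), and FASN, and BIRC5 also lies here. On 22q, at chr22:15282557-37807432 (160 genes; 2 rose and 91 fell; median log2 fold change -0.70), genes were lower. On 22q, the median was -0.59 for SUM44F against SUM44PE (-0.64 without SUM44F replicate 1), -0.12 for LTED-B against SUM44F (-0.09) and 0.10 for LTED-A against SUM44PE. It held MYH9, a non-muscle myosin (661 to 287 CPM). At the end of 19q, at chr19:52369917-58558954 (120 genes; 90 rose and 0 fell; median log2 fold change 0.84), genes were higher. On 19q, the median was 0.49 for SUM44F against SUM44PE (0.48 without SUM44F replicate 1), 0.31 for LTED-B against SUM44F (0.31) and 0.70 for LTED-A against SUM44PE. The stretch held TRIM28, the corepressor of KRAB zinc finger proteins (202 to 423 CPM).

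Chromosome 6 held 3 stretches. Genes were lower at chr6:79631329-125932034 (100 genes; 2 rose and 64 fell; median log2 fold change -0.90), including CD24, CD164, a sialomucin (492 to 124 CPM), and FOXO3, a forkhead factor that insulin signaling restrains (182 to 39.2 CPM; -2.21 ± 0.06). In this lower stretch, the median was -0.41 for SUM44F against SUM44PE (-0.40 without SUM44F replicate 1), -0.60 for LTED-B against SUM44F (-0.58) and -0.30 for LTED-A against SUM44PE. Directly beyond, genes were higher at chr6:125956770-149749665 (60 genes; 35 rose and 4 fell; median log2 fold change 0.69), including RPS12, ENPP1, a phosphodiesterase of the cell surface (132, 135 and 131 CPM in SUM44PE and 757, 726 and 716 CPM in LTED-B; 2.46 ± 0.07), HEBP2, a heme-binding protein (87.3 to 454 CPM), and MYB (74.1 to 114 CPM). In this higher stretch, the median was -0.30 for SUM44F against SUM44PE (-0.30 without SUM44F replicate 1), 1.04 for LTED-B against SUM44F (1.07) and -0.47 for LTED-A against SUM44PE. The remaining stretch, chr6:25652201-27893891 (60 genes; 40 rose and 6 fell; median log2 fold change 1.03), is the histone cluster. For this cluster, the median was -0.05 for SUM44F against SUM44PE (-0.19 without SUM44F replicate 1), 1.13 for LTED-B against SUM44F (1.26) and 0.61 for LTED-A against SUM44PE. RNA levels alone do not show DNA copy number, which was not measured here. Windows of 20 genes gave 20 stretches, windows of 80 gave 4, and protein-coding genes alone, added after seeing the data, gave 7. With protein-coding genes alone, a further chromosome held a stretch, at chr2:24793136-33399509 (60 genes; 26 rose and 4 fell; median log2 fold change 0.50).

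**Figure D5:**
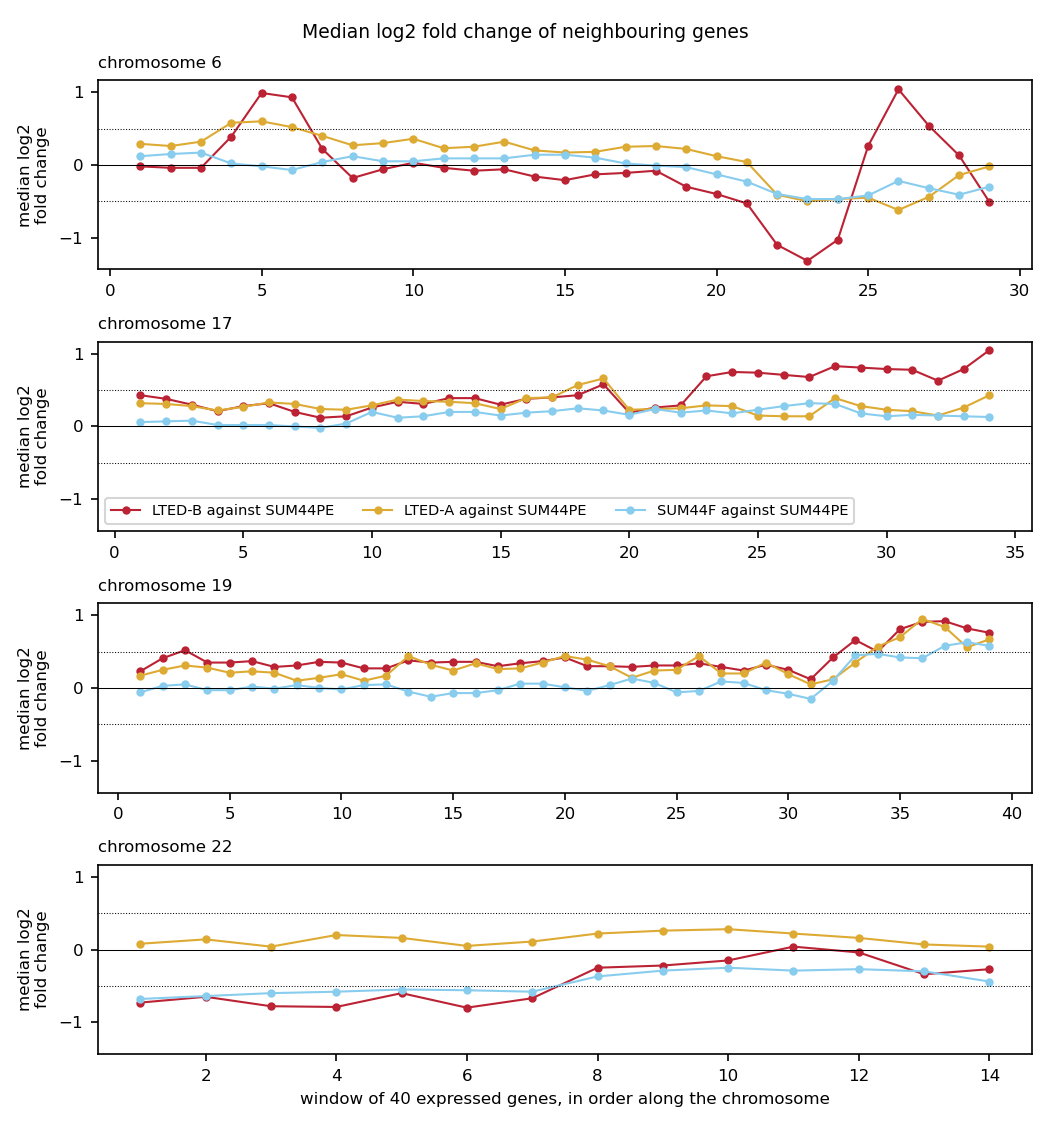
Median log2 fold change of windows of 40 expressed genes (y axis) in order along chromosomes 6, 17, 19 and 22 (x axis, window number), for LTED-B (red), LTED-A (yellow) and SUM44F (light blue), each against SUM44PE. Dotted lines mark 0.5 and -0.5, and the red line stays above 0.5 at the end of 17 and below -0.5 at the start of 22.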

How the data were processed

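RNA was extracted from triplicate wells of SUM44PE, SUM44F, LTED-A and LTED-B cells, and the authors sequenced stranded total RNA libraries and deposited estimated counts per gene, made with Salmon 0.6.0 on hg38 with Ensembl release 82. How strand was set is not given in the sources used here. Estimated counts were rounded, and groups followed the sample labels. The 12 SUM44 libraries were fitted together in edgeR 4.0.16 (R 4.3.3) after TMM scaling and the default filter on low counts. Comparisons used the quasi-likelihood F-test with Benjamini-Hochberg adjustment over all 27457 genes, and a gene was DE beyond 1.5-fold at an adjusted p below 0.001, the thresholds of the study. LTED-A replicates 2 and 3 differed by less than counting error (chi-square per degree of freedom 0.312, against 6.08 to 13.3 within SUM44PE and LTED-B) and were averaged. In simulated data for LTED-B against SUM44PE on 26554 genes, 92 of 100 genes changed 4-fold and 59 of 100 changed 2-fold were recovered, with 2 false calls. The changed genes had at least 1 CPM, were raised as often as lowered and were far fewer than the DE genes here. The 2 false calls are thus not an error rate for these data. Libraries of 34591553 to 97697516 counts set the precision, and intervals cover counting error only.

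Genes named were protein-coding DE genes of at least 1 CPM in either group whose SUM44PE and LTED-B libraries did not overlap: the 12 largest log2 fold changes and the 5 largest changes in CPM in each direction, and up to 4 members of each of 24 lists with the smallest p. Members that did not pass were given as examples. Any other gene named, and the promoters shown, were chosen after their values were seen. Genes of chromosome Y were left out, and some genes that the rule named are not reported here. The comparison, its members and the lists were chosen with earlier results of these data known. Gene positions are those of GENCODE version 44 on hg38, promoters those of RefSeq on GRCh38.p14. Alternatives were other filters, RLE factors, DESeq2 1.42.0, thinned counts, other thresholds, other sets of libraries and a replicate block.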

Additional observations from a re-analysis of the deposited data

Results flagged for a closer look

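Of the 32 genes chosen by size of change, 16 also differed between LTED-A and LTED-B, variants of the same culture, in the two-sided quasi-likelihood test of that difference by edgeR (more than 1.5-fold, adjusted p below 0.001). Among all genes tested, 9.21% did. The 32 genes were chosen for large values in the same LTED-B libraries, which favours such differences and their direction, so nothing is read from the count. Both variants were grown without estrogen, and LTED-A counts as 2 samples. The level in LTED-A minus that in LTED-B, on the log2 scale, was -1.86 for BAMBI, -1.96 for BMPR1B, -2.03 for CCDC196, -6.29 for CHST10, -9.27 for EVPLL, -1.08 for MGP, -5.72 for MYBPC1, -2.40 for MYCL, -2.55 for ODC1, -1.97 for RPS12, -5.88 for TAT. These 11 genes rose in LTED-B against SUM44PE and were lower in LTED-A. It was 0.69 for CD24, 1.05 for FLNA, 1.03 for KRT8, 3.17 for PCDH7, 6.83 for SYT1, the 5 genes that fell in LTED-B and were higher in LTED-A. The other 16 of the 32 did not pass the test of the difference.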

How the results depend on the processing

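With a fold minimum of 2 in place of 1.5, 2873 genes differed between LTED-B and SUM44PE, of which 1038 were higher, and 770 differed between SUM44F and SUM44PE, 2944 between LTED-B and SUM44F and 1368 between LTED-A and LTED-B. At an adjusted p under 0.05, these counts were 8713, with 4995 lower in LTED-B, and 2871, 8280 and 4157. Windows of 20 genes gave 20 stretches against 6. Without 1 library of the pair, edgeR called 4580 to 4905 genes between LTED-B and SUM44PE (2211 to 2684 higher, 2089 to 2369 lower). With 1 library left out, the ranges were 1102 to 1420 for SUM44F against SUM44PE, 4376 to 5022 for LTED-B against SUM44F and 1926 to 2361 for LTED-A against LTED-B. Without SUM44F replicate 1 the 4 counts were 5658, 1393, 5179 and 2561. The other settings moved these counts by less than 1.5 times, among them RLE factors (5638), DESeq2 (5857) and SUM44PE and LTED-B alone (6169, with 2767 higher and 3402 lower). Values of 142 genes were followed across the settings. None of them changed sign under any setting run, and 23 values lost and 27 gained a call, 17 of the losses with the fold minimum of 2. Other genes named above, MCM5 among them, are not part of these counts. Of counts of list members, 68 moved beyond 1.5 times and 844 did not.

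With the replicate number as a block and LTED-A left out, 5471 genes were called between LTED-B and SUM44PE (2791 higher, 2680 lower). None of the 142 genes followed across the settings lost its call. Same-numbered libraries of SUM44PE and LTED-B had correlations of deviations from the group means of -0.0264 to 0.0111. The range was -0.00454 to 0.177 for SUM44F and LTED-B and -0.0491 to 0.0535 for SUM44PE and SUM44F. Not every library correlated best with its own number. With 3 wells per group, such correlations cannot show whether the wells were paired. The causes of these shifts were not tested. LTED-B is a single variant, its wells are not separate derivations, and a transcript near 1 count per library cannot be compared closely.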
